A study of Mus musculus with 2 samples.

Results

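The genes described here are 236 antisense long noncoding RNA genes expressed in the left cerebral cortex of the mouse. They were selected on 2 grounds: the annotation types at least 1 of their transcripts as antisense and none as protein-coding or lincRNA, and their measured level was at least 1 TPM (the number of transcripts per fixed total, corrected for transcript length) in both libraries. Of 55536 annotated genes, 3067 met the transcript types. Kcnq1ot1, Dlx6os1, Tsix and the Snhg genes were set aside by the rule, 6 genes in all, of which 3 reached the level. That left 3061 antisense genes, of which 236 (7.71%) passed the level and 2825 did not. Since TPM chose them, the levels below are a description and no test is made of them.

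Total RNA came from 2-month-old female B6CASTF1/J mice, the F1 hybrid of C57BL/6J and CAST/EiJ, with no treatment or other genotype named. The series is 1 group of 2 biological replicates, 1 library each, prepared from a 300 ng input with ERCC spike-ins, and the spike-in profile named in the labels is one for stranded libraries with ribosomal RNA reduced. Both tissue samples carry the same donor entry in the labels, so the spread between them may be technical. The total expected count was 31196858 in replicate 1 and 32292150 in replicate 2.

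An antisense long noncoding RNA is transcribed from the strand opposite another gene, often a protein-coding one. Some begin at the coding gene's promoter and run away from it, some run head to head across its first exon, and others arise inside the gene or run into its 3′ end. A few act in cis on the gene they face, as Airn does in mouse imprinting, while for most no function is known. In bulk tissue, fewer cells with an RNA and less RNA per cell cannot be told apart.

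Markers of the cell types of cortex were present. All 6 neuron markers, from Snap25 to Gad1, all 4 astrocyte, all 4 oligodendrocyte and all 3 microglia markers were above 1 TPM in both libraries. Summed over their markers, neurons had 3250 and 3161 TPM and oligodendrocytes 587 and 639 TPM in replicates 1 and 2. Choroid plexus markers (Ttr and Kl) summed to 7.70 TPM in the first library and 36.1 TPM in the second, and blood markers (Hba-a1 and Hbb-bs) to 227 and 292 TPM. The part these differences played in the values below was not tested.

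Of the 236 genes, 219 (92.8%) overlapped a protein-coding gene on the other strand. In 123 of them an exon of the antisense gene lay opposite coding sequence. The following 4 stretches are shown because they are the bases that the antisense RNA and a messenger RNA hold as complements. They come from the leading transcripts of the 4 genes of highest TPM whose longest such run has 30 to 200 bases. Each is written 5′ to 3′ in the antisense direction, from the GENCODE M21 transcripts on mm10, with capitals for the bases that face coding sequence and up to 10 flanking exon bases in lower case.
4933431E20Rik opposite Eps8l3: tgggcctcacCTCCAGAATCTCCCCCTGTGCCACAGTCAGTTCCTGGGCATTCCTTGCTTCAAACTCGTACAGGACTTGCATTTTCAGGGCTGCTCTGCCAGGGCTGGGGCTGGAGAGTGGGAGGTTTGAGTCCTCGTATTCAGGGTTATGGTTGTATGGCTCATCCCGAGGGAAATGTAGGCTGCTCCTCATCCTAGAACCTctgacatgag
Tmem147os opposite Gapdhs: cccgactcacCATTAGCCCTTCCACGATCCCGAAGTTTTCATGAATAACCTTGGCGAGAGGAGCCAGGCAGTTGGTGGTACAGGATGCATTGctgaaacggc
2810468N07Rik opposite Sox8: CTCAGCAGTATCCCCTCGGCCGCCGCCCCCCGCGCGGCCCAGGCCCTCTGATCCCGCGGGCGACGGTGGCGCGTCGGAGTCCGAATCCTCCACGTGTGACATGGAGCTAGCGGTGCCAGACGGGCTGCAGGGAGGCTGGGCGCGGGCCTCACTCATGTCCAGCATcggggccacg
Gm13205 opposite Casz1: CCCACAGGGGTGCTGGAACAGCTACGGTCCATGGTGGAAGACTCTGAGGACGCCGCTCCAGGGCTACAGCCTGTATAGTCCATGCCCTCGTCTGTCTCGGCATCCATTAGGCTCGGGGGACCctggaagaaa
The first stretch has 193 facing bases in exon 3 of 3, at chr3:107890871-107891083 on the minus strand. The Gapdhs stretch has 82 facing bases in exon 2 of 6, at chr7:30732602-30732703 on the plus strand. The Sox8 stretch has 165 facing bases in exon 1 of 2, at chr17:25570358-25570532 on the plus strand. The Casz1 stretch has 122 facing bases in exon 1 of 2, at chr4:148948783-148948914 on the minus strand. Over all members, the leading transcript of 90 held such a run free of annotated untranslated bases, with a median length of 155 bases.

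A further way for an antisense gene to meet a coding gene is a shared start region. In 36 of the 236 genes the start lay within 1000 bases of a coding start on the other strand, with the pair transcribed away from each other. RefSeq promoter windows (GRCm38.p6, 250 bases before to 50 after a start) matched 110 of the 236 genes. That is under 80% of the genes, so a check of base composition over the set is void. In 11 matched windows both starts fell inside. The following 4 are those of highest TPM with at least 30 bases between the starts and a RefSeq start within 50 bases of the GENCODE start. Each is written 5′ to 3′ on the antisense strand, begins 30 bases inside the coding transcript, and has capitals for the bases from the coding start to the antisense start.
3110056K07Rik and Arid4a: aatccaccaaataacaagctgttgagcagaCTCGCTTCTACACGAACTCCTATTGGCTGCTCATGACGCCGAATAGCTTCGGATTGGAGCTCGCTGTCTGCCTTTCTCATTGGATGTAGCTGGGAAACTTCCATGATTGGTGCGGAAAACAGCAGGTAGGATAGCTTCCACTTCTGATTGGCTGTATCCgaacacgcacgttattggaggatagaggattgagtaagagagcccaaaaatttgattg
5430405H02Rik and Rab5if: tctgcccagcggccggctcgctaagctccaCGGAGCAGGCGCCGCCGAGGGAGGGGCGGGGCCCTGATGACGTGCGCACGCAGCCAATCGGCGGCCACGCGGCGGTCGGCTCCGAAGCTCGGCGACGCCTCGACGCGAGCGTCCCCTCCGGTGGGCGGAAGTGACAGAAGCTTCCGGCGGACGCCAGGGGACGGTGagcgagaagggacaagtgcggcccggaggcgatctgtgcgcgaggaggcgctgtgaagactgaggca
Gm13629 and Scn1a: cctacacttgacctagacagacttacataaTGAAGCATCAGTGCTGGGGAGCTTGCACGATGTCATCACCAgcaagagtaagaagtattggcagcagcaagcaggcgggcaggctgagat
Gm4285 and Tpt1: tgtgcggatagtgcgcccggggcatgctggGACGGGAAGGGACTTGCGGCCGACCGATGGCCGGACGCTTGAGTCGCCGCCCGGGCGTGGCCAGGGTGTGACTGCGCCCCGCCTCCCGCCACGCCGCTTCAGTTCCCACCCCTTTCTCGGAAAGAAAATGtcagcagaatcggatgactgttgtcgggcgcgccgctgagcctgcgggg
The starts are 158 bases apart at Arid4a (chr12:71015774-71016020, minus strand), 165 at Rab5if (chr2:156862896-156863158, minus strand), 40 at Scn1a (chr2:66440810-66440929, plus strand) and 129 at Tpt1 (chr14:75844915-75845123, minus strand). The 6 motifs searched on both strands were TATAAA (the TATA box), CCAAT (bound by NF-Y), GGGCGG (the GC box), TGACGTCA (the cAMP response element), CCGGAAG (an ETS site) and GCGCATGC (the core of an NRF1 site). CCAAT stood 5 times between the Arid4a starts and 1 time between the Rab5if starts. GGGCGG stood 2 times between the Rab5if starts and 1 time between the Tpt1 starts. CCGGAAG was also found between the Rab5if starts. Between the Scn1a starts none of the 6 was found. Among the first windows of all 27025 genes in the RefSeq table, 37.9% held CCAAT, 35.9% held GGGCGG and 9.12% held CCGGAAG somewhere in 300 bases.

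The antisense genes were low as a class. Their median level was 2.35 TPM in replicate 1 and 2.26 TPM in replicate 2, against 2.95 and 2.72 TPM over 299 expressed lincRNA genes and 16.6 and 15.6 TPM over 12958 expressed protein-coding genes. Of the 236, 124 reached 2 TPM in both libraries, 38 reached 5 TPM, 20 reached 10 TPM and 3 reached 20 TPM. Together they made up 0.0972% of all TPM in replicate 1 and 0.0931% in replicate 2. The 15 highest held 31.9% of that sum, and 14 genes were among the 15 highest of both libraries. In counts, the median member had 56.5 expected reads in replicate 1 and 57.0 in replicate 2.

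Tug1, a conserved long noncoding RNA first described in the developing retina, was the highest. It had 47.11 TPM in replicate 1 and 47.08 TPM in replicate 2, from 3777 and 3975 expected counts. Its gene span and that of Morc2a, which encodes a chromatin ATPase, overlap head to head over 483 bases, and Morc2a had 20.15 and 16.69 TPM. B230334C09Rik, a single-exon transcript that runs into the 3′ end of Lrrc40, followed with 29.14 and 28.82 TPM. A830036E02Rik had 26.66 and 23.68 TPM, and 964 of its exon bases lay opposite coding sequence. Krt12, the keratin of the corneal epithelium that it overlaps, had 4.72 and 3.73 TPM. The SD over the 2 libraries was 0.0212 TPM for Tug1, 0.226 TPM for B230334C09Rik and 2.11 TPM for A830036E02Rik.

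**Figure D1:**
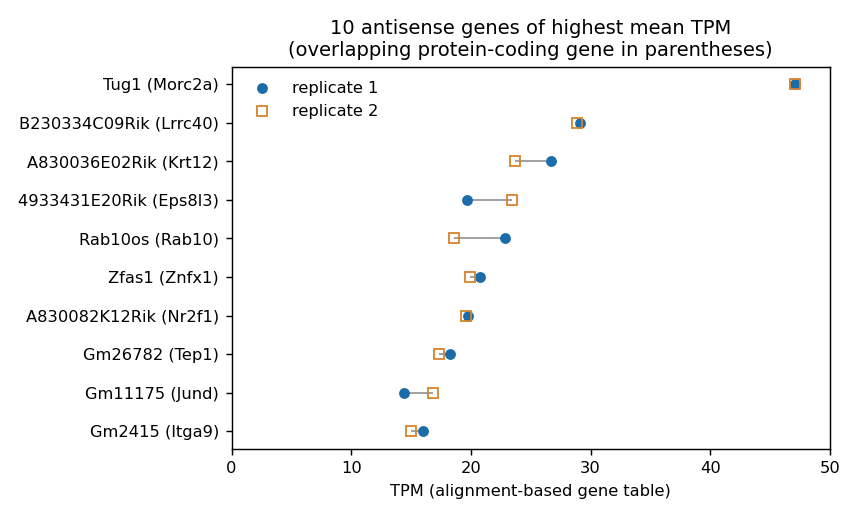
TPM in replicate 1 (filled circles) and replicate 2 (open squares) for the 10 antisense genes of highest mean TPM, with the overlapping protein-coding gene in parentheses. Tug1 stands apart at 47.1 TPM in both libraries, and the grey bars between the libraries are widest for Rab10os, 4933431E20Rik and A830036E02Rik.

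Rab10os and Zfas1 were also among the 10 genes of highest mean TPM. Rab10os had 22.88 and 18.57 TPM and ends in Rab10, a small GTPase of vesicle transport, at 59.38 and 57.29 TPM. Its expected counts were 996 and 973, so the libraries were closer in counts than in TPM. Its short 5-exon transcript of 746 bases took 36.9% of the gene's TPM in replicate 1 and 31.7% in replicate 2, and a shift in such shares alters the TPM that a given count makes. In the 230 genes averaging 10 or more counts, the ratio of TPM departed from the ratio of counts by more than 0.25 on the log2 scale in 27. Zfas1 had 20.73 and 19.96 TPM. Its gene holds the small nucleolar RNA Snord12 and 2 further snoRNA entries, and it overlaps Znfx1 head to head over 82 bases, which had 37.32 and 34.53 TPM.

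At 0.5 TPM in both libraries there were 375 antisense genes, at 1 TPM the 236 members and at 2 TPM 124. The 3 members nearest the threshold, by the lower of their 2 values, were Gm15991 at 1.29 and 1.00 TPM, Gm44777 at 1.18 and 1.00 TPM and Gm13054 at 1.56 and 1.01 TPM in replicates 1 and 2. Gm16299, at 1.01 and 1.15 TPM, had the same lower value as Gm13054 at this rounding. Just outside were 4930488L21Rik at 0.990 and 1.05 TPM, A830011K09Rik at 0.980 and 1.13 TPM and Gm27003 at 0.980 and 2.18 TPM. In all, 63 antisense genes reached 1 TPM in only 1 library, these 3 among them, and 1492 had no count in either.

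The place of the expressed antisense genes relative to their coding partner differed from that of the 2825 antisense genes below the threshold. The 5′ end of the coding gene was covered by 92 of 236 (39.0%), against 556 of 2825 (19.7%) below the threshold. The 3′ end was overlapped by 54 (22.9%), against 387 (13.7%). Genes wholly inside the coding gene made up 63 (26.7%), against 1575 (55.8%). The remaining classes were close, with 10 (4.24%) against 96 (3.40%) that contain the coding gene and 17 (7.20%) against 211 (7.47%) with no overlap. These shares are descriptions of the annotation, and no test is given because TPM chose the members.

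**Figure D2:**
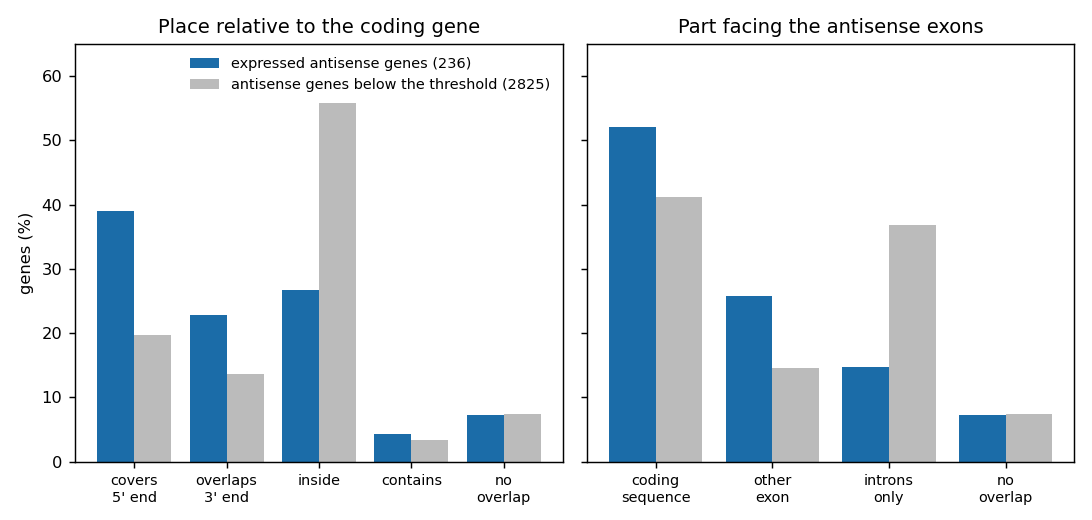
Share of genes (%) by place relative to the coding gene (left) and by the part of the coding gene that faces the antisense exons (right), for the 236 expressed antisense genes (blue) and the 2825 below the threshold (grey). The blue bar is the taller for the 5′ end (39.0% against 19.7%) and the grey bar for genes inside the coding gene (26.7% against 55.8%).

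The parts faced by exons also differed. Coding sequence was faced by 123 members (52.1%), against 1163 (41.2%) below the threshold. Other exon bases alone were faced by 61 (25.8%), against 412 (14.6%). Only introns were faced by 35 (14.8%), against 1039 (36.8%). Among these last is Airn, the imprinted antisense RNA that begins in an intron of Igf2r, with 1.72 and 1.57 TPM beside 13.44 and 12.44 TPM for Igf2r.

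Starts near a coding start were also more frequent. Within 1000 bases, 36 members (15.3%) were transcribed away from the coding gene, against 179 (6.34%) of those below the threshold. Another 71 (30.1%) overlapped its head, against 386 (13.7%). Together 107 of the 236 (45.3%) had such a start. Single-exon leading transcripts made up 52 of 236 (22.0%), against 204 of 2825 (7.22%), and the median leading transcript had 1080 bases, against 781. The leading transcript is the one of highest mean TPM, but the longest one in the 1492 genes with no count, so the 2 sets are not measured alike. Genes annotated with 1 transcript were 86 (36.4%) of the members and 2153 (76.2%) of the rest. On the X chromosome lay 0 members, against 44 (1.56%) of the antisense genes below the threshold, 8 of 299 expressed lincRNA genes (2.68%) and 428 of 12958 expressed coding genes (3.30%).

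Among the genes transcribed away from a coding start, E130307A14Rik was the highest at 14.44 and 15.21 TPM. It starts 111 bases from Rev3l, the catalytic subunit of DNA polymerase zeta, which had 11.43 and 11.92 TPM. Tmem147os had 13.36 and 10.44 TPM, 39 bases from Tmem147 at 54.51 and 50.79 TPM. Gm13375 had 11.34 and 10.41 TPM, 173 bases from Arhgap21, a GTPase-activating protein, at 123.6 and 130.1 TPM. In both of the last pairs the coding gene was the higher. Gt(ROSA)26Sor, the locus widely used for transgene insertion, had 7.47 and 7.40 TPM and starts 32 bases from Setd5 at 53.95 and 50.82 TPM. Of the pairs whose start windows are printed above, 3110056K07Rik had 6.52 and 6.13 TPM beside Arid4a, a retinoblastoma-binding protein, at 17.43 and 15.58 TPM. 5430405H02Rik had 5.42 and 6.13 TPM beside Rab5if at 40.49 and 37.26 TPM. Gm13629 had 4.82 and 4.60 TPM beside Scn1a, the sodium channel subunit Nav1.1 of inhibitory neurons, at 50.79 and 48.87 TPM.

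Most antisense genes were well below the coding gene they overlap. The longest-overlapping partner had a median of 16.4 TPM in replicate 1 and 15.5 TPM in replicate 2, and the median member stood at 13.8% and 15.3% of its partner. In 76 of 219 pairs the antisense gene was under 10% of its partner in both libraries. Partners were at 1 TPM or more in both libraries in 187 of 219 pairs (85.4%), against 1990 (76.1%) of the 2614 partners of antisense genes below the threshold. Across all protein-coding genes the share was 58.8%. Over the 219 pairs, which come from the same libraries, the rank correlation of member and partner TPM was -0.05. The rule cut off antisense levels under 1 TPM, and 87 members were below 2 TPM in both libraries. The value therefore describes these pairs only and does not show how antisense and sense levels relate in general.

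In 52 of 219 pairs the antisense gene was above its partner in both libraries, and in 31 of these the partner was under 1 TPM in both. Since every member had at least 1 TPM by the rule, the order in those 31 pairs was fixed by the selection. In 20 of the 52 the partner was at 1 TPM or more in both libraries. Against the overlapping partner of highest TPM, 46 members were above in both libraries. Tug1 was 2.34 and 2.82 times Morc2a, and Gm26782 was 8.26 and 9.26 times Tep1, a telomerase-associated protein, at 18.26 and 17.32 TPM for the antisense gene. Eps8l3 was listed at 0 in both libraries beside 4933431E20Rik at 19.66 and 23.46 TPM. That antisense gene also overlaps the head of Gstm5, which was higher at 104.9 and 98.39 TPM. Gapdhs, the sperm form of the glycolytic enzyme, was at 0 beside Tmem147os. Gm13601, inside the muscle gene Xirp2, had 2.89 and 3.00 TPM, against 0.03 and 0.02 TPM for Xirp2. Gm13205 had 9.62 and 10.95 TPM, against 0.56 and 0.65 TPM for the zinc finger gene Casz1, whose facing stretch is printed above. By place, the antisense gene was above its partner in 22 of 54 pairs at the 3′ end, 12 of 92 at the 5′ end, 12 of 63 inside and 6 of 10 that contain the partner. These counts include the 31 pairs fixed by the selection, so they do not show a difference between places. In replicate 1 the partners had medians of 6.66 TPM at the 3′ end, 24.1 TPM at the 5′ end, 16.6 TPM for inside and 1.11 TPM for contained partners.

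**Figure D3:**
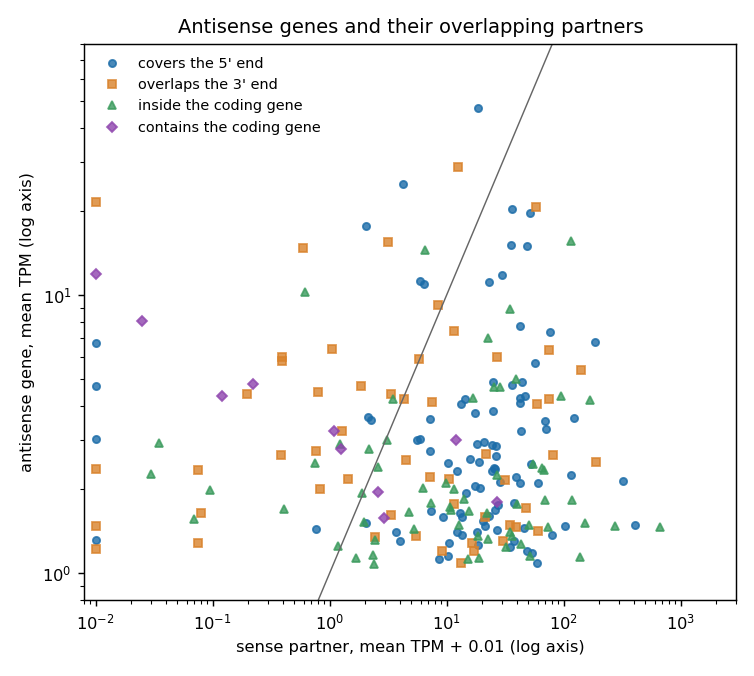
Mean TPM of each antisense gene (vertical, log axis) against mean TPM + 0.01 of the coding gene it overlaps (horizontal, log axis), 219 pairs, marked by place. Points left of the grey line are pairs in which the antisense gene is the higher, among them Tug1 at the top, and partners listed at 0 stand at the left edge.

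The sense genes were grouped by role after their names were seen: a gene whose name the antisense gene carries, otherwise the coding gene whose start lies within 1000 bases, otherwise the one overlapped most. The sense gene so chosen can differ from the partner of longest overlap used above. Transcription factors and chromatin proteins made up 47 of the 231 with a sense gene. These antisense genes ranged from 1.03 to 19.8 TPM with medians of 2.66 and 2.37 TPM, beside 2.36 and 2.26 TPM over all 231. A830082K12Rik had 19.75 and 19.57 TPM opposite Nr2f1, the nuclear receptor that patterns cortical areas, at 52.05 and 50.32 TPM. 2810468N07Rik had 12.63 and 11.05 TPM opposite Sox8, a factor of the oligodendrocyte lineage, at 30.31 and 28.61 TPM. Both examples were at a lower TPM than the factor they face. Above their sense gene in both libraries were 3 of the 47, against 42 of all 231. Zeb2os had 2.29 and 2.47 TPM beside 65.19 and 66.75 TPM for Zeb2, and Junos 2.48 and 2.24 TPM beside 25.83 and 26.24 TPM for Jun, a subunit of AP-1.

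Ion channels and neurotransmitter receptors stood opposite 12 antisense genes, from 1.39 to 8.26 TPM. Of their starts, 8 of 12 lay within 1000 bases of the coding start, against 107 of all 231. Kcnmb4os2 had 7.21 and 8.26 TPM beside Kcnmb4, the neuronal beta subunit of BK channels, at 41.70 and 43.65 TPM. Kcnd3os had 3.23 and 2.52 TPM beside the potassium channel Kcnd3 at 26.42 and 26.52 TPM. A730060N03Rik had 3.96 and 3.72 TPM beside Cacng2 (stargazin), which carries AMPA receptors to the synapse, at 24.76 and 24.60 TPM. Gm20387 had 1.66 and 1.93 TPM beside the metabotropic glutamate receptor Grm7 at 39.01 and 35.60 TPM. In these 4 pairs the coding gene was the higher by a wide margin. The antisense gene was above the sense gene in both libraries in 2 of the 12, against 42 of all 231. These were Gm45533 beside Htr6, from 11 and 7 counts, and A530058N18Rik beside Gjd2, from 126 and 142 counts. Gm45533 was at 0 in both read-based tables described below.

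Synaptic and neuronal signalling genes stood opposite 21 antisense genes. Above the sense gene in both libraries were 0 of the 21, against 42 of all 231. Their sense genes had medians of 70.0 and 61.3 TPM, beside 19.4 and 18.1 TPM over all 231. A330009N23Rik had 15.66 and 14.27 TPM beside Grasp, a scaffold of metabotropic glutamate receptors, at 50.63 and 45.75 TPM. Gm16536 had 9.13 and 8.74 TPM inside Bace1, the beta-secretase that cleaves the amyloid precursor protein, at 36.10 and 33.05 TPM. Its exons had 135 bases opposite coding sequence. A830092H15Rik had 4.68 and 3.98 TPM beside the adhesion protein Nlgn1 at 48.19 and 46.06 TPM. Chn1os1 had 1.64 and 1.28 TPM inside Chn1, a Rac GTPase-activating protein of axons and dendrites, at 686.9 and 638.3 TPM.

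Of 37 antisense genes known by name from development, imprinting and other work, 34 were in the table, 25 met the type rule without its exceptions and 4 were members: Dlx1as, Zeb2os, Airn and Zfas1. Hotairm1, Hoxa11os, Hoxb3os and Evx1os were listed at 0 counts in both libraries. Six3os1 had 1.46 and 0.980 TPM and missed the level in replicate 2.

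The libraries were compared gene by gene from rounded expected counts, scaled with TMM, with an exact 95% interval of the ratio of replicate 2 over replicate 1. It covers counting error and compares these 2 libraries, not conditions. Of 230 members tested, 0 had an interval wholly above 2-fold, against a background of 0.156% of 18562 genes, and 0 wholly below, against 0.151%. An interval that excluded equality, higher in replicate 2, was found in 7 members (3.04%), where 8.17% of all genes were so called. One lower in replicate 2 was found in 3 (1.30%), where the background was 6.89%. Members had a median mean count of 59 and all genes tested one of 363, and intervals are wider at low counts. Within 1.5-fold of equality lay 216 of the 230 (93.9%), and 94.0% of all genes.

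Dlx1as, antisense to the interneuron factor Dlx1, had 84 expected counts in replicate 2 and 126 in replicate 1. Its log2 ratio was -0.60, with an interval of -1.02 to -0.20. Other interneuron genes had other values: Dlx2 had a log2 ratio of 0.30 (-0.07 to 0.68), Dlx1 0.19 (0.00 to 0.38), Dlx5 -0.09 (-0.48 to 0.31), Dlx6 -0.25 (-0.64 to 0.13), Dlx6os1 0.02 (-0.13 to 0.17), Gad1 -0.00 (-0.04 to 0.04) and Gad2 -0.01 (-0.06 to 0.05). Gm20457 had 16 counts in replicate 2 and 38 in replicate 1, with a log2 ratio of -1.24 (-2.21 to -0.39), and Gm41361, opposite the growth factor gene Pdgfb, had 31 and 15, with 1.00 (0.09 to 2.02). Among the abundant genes the differences were small: 0.15 (0.05 to 0.25) for 4933431E20Rik, 0.06 (0.01 to 0.12) for B230334C09Rik and -0.17 (-0.29 to -0.06) for A830036E02Rik. At a mean count of at least 50, Gm20687 (0.59), Gm16008 (0.58), Gm15624 (0.41), Gm10501 (0.41) and 4833422C13Rik (0.40) had the highest log2 ratios, and C330011M18Rik (-0.51) the lowest after Dlx1as. The intervals of C330011M18Rik and 4833422C13Rik included equality. For 2 of these genes the direction turned with the measure: Gm20687 had 1.63 TPM in replicate 2 and 1.97 TPM in replicate 1, and B230334C09Rik 28.82 and 29.14 TPM.

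**Figure D4:**
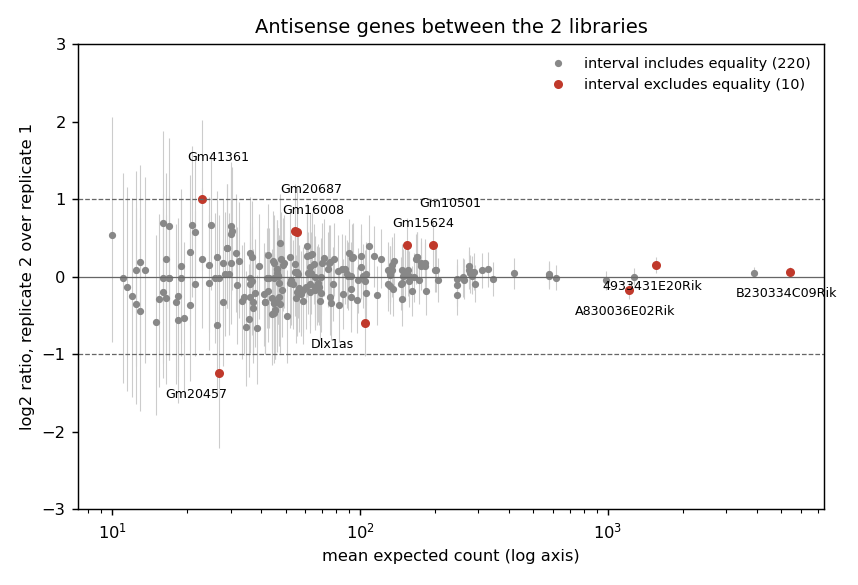
Log2 ratio of replicate 2 over replicate 1 (vertical) against mean expected count (horizontal, log axis) for 230 antisense genes with exact 95% intervals in grey. The 10 genes in red have intervals that exclude equality, and no interval lies wholly beyond the dashed lines at 2-fold.

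Since most of the genes overlap a coding gene on the other strand, how reads were assigned bears on their values. The spike-in profile is one for stranded libraries, but whether the counting used the strand is not given in the sources used here. As a measurement chosen after the values were seen, 22 antisense genes face at least 200 coding bases and have a partner at 100 TPM or more in both libraries. The coding bases are those of all coding genes on the other strand, not of the partner alone. Of these 22, 5 were members, where 236 of all 3061 antisense genes (7.71%) were. The other 17 were under 1 TPM in both libraries. No count in either library was found for 8 of the 22, and for 1492 of all 3061. The median of the 22 was 0.035 TPM, or 0.025% of the partner. The part that read assignment played in these values was not tested. Grin1os, which faces 1184 coding bases and has the NMDA receptor gene Grin1 as partner at 213 and 195 TPM, had 4 and 0 counts. The highest share was 13.5%, for Gm11175, which lies wholly inside the AP-1 subunit gene Jund and had 14.43 and 16.81 TPM beside 118.4 and 113.0 TPM. Values of antisense genes that share bases with a partner remain uncertain to the extent that reads could be split between them.

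A few members share sequence with other genes on their own strand. In 217 of the 236 the deposited posterior SD of the count was 0 in both libraries, and in 3 it passed 5% of the count in at least 1. Gm10593 and Gm3892 had the same 2.18 and 2.45 TPM, and the posterior SD for Gm3892 was 55.5% and 42.8% of its count. Gm20687, which overlaps the member Zfhx2os and the coding gene Thtpa on its own strand, had 27.6% and 19.4%. The interval given above for the library ratio of Gm20687 does not cover that uncertainty. On the same strand, 13 members overlap a coding gene, among them Gm49685 in Cdh12 and Gm44623 in Fgfr2. Small RNA genes lie inside 7 members on the same strand, such as Snord60 in Rab26os, Snord1a, Snord1b and Snord1c in 1810032O08Rik and Mir760 in Gm17494.

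The deposited read-based quantification gave a higher TPM than the alignment-based one for 222 of the 236 members in replicate 1 and 220 in replicate 2, with median ratios over the alignment-based TPM of 1.67 and 1.73 for the members and 1.55 and 1.62 for expressed coding genes. At 1 TPM or more in both read-based tables were 227 of the 236. Gm45533, at 8.16 and 4.84 TPM from 11 and 7 counts beside the serotonin receptor gene Htr6, was listed at 0 in both read-based tables, and so was Gm29155 at 2.30 and 1.73 TPM. Rab26os had 3.69 and 0.399 TPM read-based, against 7.08 and 6.97 TPM, and Gm11973 had 0.118 and 1.18, against 3.71 and 3.50 TPM. 2900060B14Rik (ratios 0.280 and 0.325) and Gm15351 (0 and 0.795) were also lower. At the other end were Gm15952 at 10.4 and 9.35 TPM, against 1.07 and 1.33, Gm12395 at 8.38 and 10.6, against 1.34 and 1.36, and Airn at 5.77 and 8.17, against 1.72 and 1.57 TPM. The ratios were 3.89 and 5.34 for Gm3892 and 3.00 and 4.76 for 9430065F17Rik. Several of these genes had few counts: Gm15952 had 8 and 12 expected counts and Gm12395 12 and 13.

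**Figure D5:**
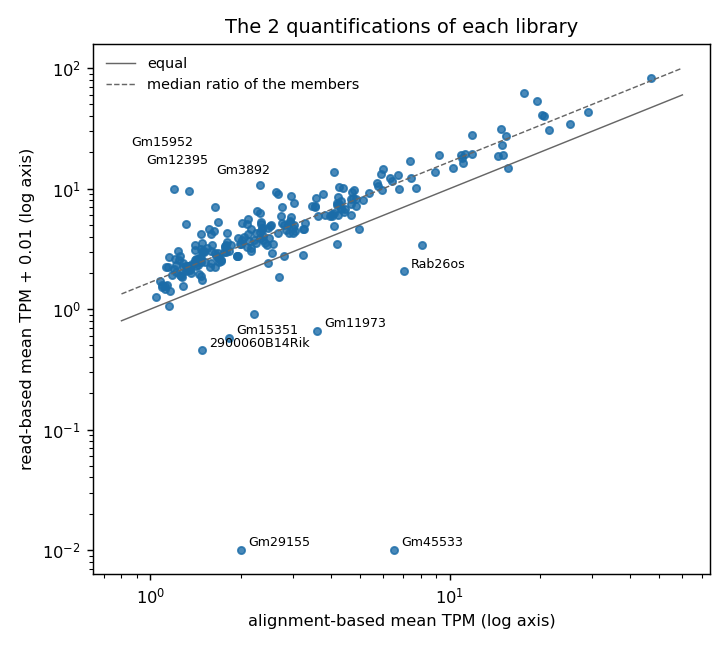
Read-based mean TPM + 0.01 (vertical, log axis) against alignment-based mean TPM (horizontal, log axis) for the 236 antisense genes, with the line of equality and the dashed line at 1.67, the median ratio in replicate 1. Gm45533 and Gm29155 lie at the bottom, at 0 in the read-based tables.

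Other members with given names were of middle level. Sp3os had 6.41 and 7.04 TPM, Trmt61b 6.57 and 6.23 TPM, Zfhx2os 5.70 and 6.27 TPM and Prox2os 5.06 and 3.89 TPM. Trmt61b, whose symbol does not mark it as antisense, is a member because this annotation types its transcripts as antisense only. Mtag2 had 3.96 and 3.12 TPM, Brip1os 3.00 and 3.01 TPM, Zfp652os 3.02 and 2.82 TPM, Ccdc142os 2.98 and 2.59 TPM, Zfp335os 2.52 and 2.14 TPM, Zbtb11os1 2.35 and 2.30 TPM and Pcsk2os1 2.35 and 2.16 TPM. Runx2os1 had 1.69 and 2.37 TPM. At lower levels in both libraries than all of these were Zfp85os, Tomm6os, Zmiz1os1, Panct2, N4bp2os, Fbxl12os, Man2c1os, Ttc39aos1 and Lrp8os2. Also among the 15 highest, Gm2415 had 15.99 and 14.99 TPM and AC109619.1 15.07 and 13.91 TPM, both single-exon. Gm2415 lies at the 3′ end of the integrin gene Itga9. Its start is 2 bases from that of Ctdspl, which had 18.69 and 16.05 TPM. AC109619.1 lies in an intron of Macrod1.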

How the data were processed

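Total RNA-seq of left cerebral cortex was deposited as 3 tables per library on mm10 with GENCODE M21, per the file lists deposited with each library. The authors' alignment-based tables hold expected counts, TPM, the percent of a gene's TPM in each transcript and a posterior mean and SD of the count (other values) per gene or transcript. A further deposited table holds read-based estimated counts and TPM per transcript, which were summed per gene here. Aligner and quantification tools: not given in the sources used here. TPM has a fixed sum, so abundant short RNAs lower it for all other genes: genes of the 7SL and 7SK class and mitochondrial genes took 42.1% and 43.9%. The reference is C57BL/6J, so CAST/EiJ reads with many differences can be lost.

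Expected counts were rounded and scaled by the TMM method of edgeR 4.0.16, run in R 4.3.3, over the 18562 genes averaging 10 or more counts. The log2 ratio used a prior count of 0.5, with an exact Clopper-Pearson 95% interval. The interval was checked on simulated counts that held counting error only, so that check says nothing about other variation. Reads carry no molecular identifiers, so PCR copies are counted too and intervals cover counting error only. DESeq2 1.42.0 gave other size factors. With 1 group no p-value is given. Tables were joined in Python 3.11.15 with pandas 2.3.3.

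The members and lists were chosen with earlier results of these data known. Named genes are the 15 of highest mean TPM, of which 1 is not reported here, members with given names, those 3 nearest the threshold on each side, and those of largest ratio between libraries, quantifications, or antisense and sense gene, and of highest level with a divergent start. The examples under the role groups were chosen after their values were seen. Starts are the 5′ ends of gene spans, and a partner is the coding gene of longest overlap.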

Additional observations from a re-analysis of the deposited data

How the results depend on the processing

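Of 29 alternatives computed, 21 stayed within 1.5-fold of the count given, or within the spread between the libraries for the median level. The number of expressed antisense genes was 375 at 0.5 TPM in both libraries and 124 at 2 TPM, and 492 with read-based TPM, against 236. With only 1 library used it ranged from 267 to 268. The median TPM was 4.22 read-based and 4.12 after rescaling without 7SL, 7SK and mitochondrial genes, against 2.32, and from 2.26 to 2.35 with 1 library left out. Members beyond 2-fold between the libraries were 2 by the point ratio and 1 with a prior count of 2, against 0 by the interval. Members with a divergent start were 59 by the starts of the leading transcripts, an alternative chosen after seeing the data, against 36. Members above their partner ranged from 55 to 55 with 1 library left out. A changed threshold or a rescaled TPM alters these values by arithmetic, and the cause of the other moves was not tested. The check of base composition at member starts, with its alternative of the last 100 bases, was computed on the 110 matched windows only and is not given, because a check with a window for fewer than 80% of members is void. No paired analysis was possible because the samples form 1 group. Depth limits the comparison of the libraries, for which 6 members had a mean count under 10 and were left out.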
